A study of Homo sapiens with 18 samples.

Results

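The 10 genes described here form the oxygen-sensing system of the cell: the alpha subunits EPAS1 and HIF1A, their partners ARNT and ARNT2, the prolyl hydroxylases EGLN1, EGLN2 and EGLN3, the ubiquitin ligase subunit VHL, and the secreted products VEGFA and ADM. They were chosen by name, and each was found by its Ensembl identifier among the 58051 genes listed in the files. Of the 10 members, 9 passed the filter on low counts that left 15037 genes for testing, and ADM did not. The members were proposed with earlier results of these data in view, and the values that guided that choice are not recorded. The adjusted p-values below come from a fit over all 15037 genes and describe the members. They are not independent evidence for them.

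Cells sense oxygen through the turnover of the alpha subunits of hypoxia-inducible factor (HIF). When oxygen is present the EGLN enzymes hydroxylate prolines in HIF1A and EPAS1 (also called HIF-2 alpha), VHL binds the hydroxylated protein, and the proteasome destroys it. When oxygen is scarce the alpha subunits persist, pair with ARNT or ARNT2 and switch on genes such as VEGFA, ADM and EGLN3 itself. In macrophages both alpha subunits are in use, HIF1A being known for inflammatory activation and EPAS1 for the response to IL-4. Much of this control acts on protein, which RNA counts do not show.

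RNA was sequenced in 18 libraries of THP-1 cells, a human line derived from monocytic leukaemia that becomes macrophage-like under the phorbol ester PMA. The 6 groups of 3 libraries were NIC1, DNMAML and IRES cells with IL-4, and NIC1, DNMAML and IRES cells without it. NIC1 cells carried a MYC-tagged NOTCH1 intracellular domain, the active form of the receptor; DNMAML cells carried dominant-negative Mastermind-like, which blocks transcription by the Notch complex; and IRES cells carried the empty vector. All 3 vectors were MSCV retroviruses with GFP, so each protein was overexpressed from a viral promoter in a sorted GFP-positive population. Every group had PMA at 5 ng/ml for 48 h, and the IL-4 groups then had 20 ng/ml of IL-4 for 3 h. No label mentions an oxygen treatment. Each experiment number (1, 2 or 3) occurs once in each group, but nothing in the labels says whether libraries came from separate cultures, so a p-value reflects the scatter among these libraries, which may be partly technical.

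Gene counts came to 12410668 to 15099788 reads in each library. Levels are given as CPM, counts per 1000000 counts with library sizes scaled by edgeR's TMM factors. Of 10 monocyte and macrophage markers, 8 averaged at least 1 CPM over the 18 libraries. CD68 lay between 0.401 and 1.60 CPM and MPO between 0.197 and 1.44 CPM. Of the endothelial markers, PECAM1, which myeloid cells share, reached 574 to 707 CPM, VWF lay between 4.29 and 16.6 CPM, ERG did not exceed 2.13 CPM and CDH5 1.16 CPM, and TEK had 3 counts in all libraries together. The library of DNMAML cells with IL-4 in experiment 3 and that of unstimulated IRES cells in experiment 3 had a count for 25322 and 23179 genes, against 21067 to 21557 in the others. In bulk RNA, fewer cells that express a gene and less RNA per cell cannot be told apart.

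The promoters of 7 of the 10 members were in the RefSeq table used here. The 250 bases upstream of the start are shown for EPAS1, HIF1A and EGLN3, the members called higher with IL-4 without a block or pairing. They lie at chr2:46297157-46297406 on the plus strand (EPAS1), chr14:61695263-61695512 on the plus strand (HIF1A) and chr14:33951075-33951324 on the minus strand (EGLN3) of GRCh38.p14. Capitals mark the core of the hypoxia response element, searched as ACGTG or GCGTG on both strands.
EPAS1: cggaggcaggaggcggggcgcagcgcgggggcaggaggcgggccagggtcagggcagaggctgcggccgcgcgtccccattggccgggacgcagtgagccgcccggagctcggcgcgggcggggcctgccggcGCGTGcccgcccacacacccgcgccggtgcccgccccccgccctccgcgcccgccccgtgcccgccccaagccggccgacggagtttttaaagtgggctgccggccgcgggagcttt
HIF1A: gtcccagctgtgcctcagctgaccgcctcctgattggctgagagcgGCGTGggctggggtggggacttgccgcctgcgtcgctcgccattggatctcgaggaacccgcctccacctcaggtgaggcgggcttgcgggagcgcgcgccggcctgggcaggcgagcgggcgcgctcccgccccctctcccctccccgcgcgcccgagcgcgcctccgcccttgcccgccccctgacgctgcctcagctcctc
EGLN3: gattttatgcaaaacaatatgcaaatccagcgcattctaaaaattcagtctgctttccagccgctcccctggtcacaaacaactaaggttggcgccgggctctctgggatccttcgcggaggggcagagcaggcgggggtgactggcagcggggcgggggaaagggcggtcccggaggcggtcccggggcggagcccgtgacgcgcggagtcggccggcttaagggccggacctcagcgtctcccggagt
The core occurred once in the EPAS1 window, 117 bases before the start, once in the HIF1A window, 204 bases before it, and not in the EGLN3 window. Such a match is common, being present in 43.2% of 35116 promoter windows of this length. Neither TTC and GAA with any 4 bases between them, the kind of site that STAT6 binds, nor TGGGAA, the core that the Notch factor RBPJ binds, was found in any of the members' windows on either strand, and these occur in 5.38% and 20.8% of all windows. A missing match says only that these letters are not in the window.

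Per kilobase of exon, the members fell into 3 tiers of RNA level. HIF1A (37.8 ± 5.45 CPM per kb, mean ± SD over 18 libraries), VEGFA (35.2 ± 12.9) and VHL (26.8 ± 2.08) were the most abundant, and their ranges overlapped, the highest VHL value (30.3) being just above the lowest HIF1A value (29.4). ARNT (15.0 ± 1.03 CPM per kb) and EGLN1 (13.7 ± 2.13) followed and overlapped each other. EGLN2 stood at 3.03 ± 0.579 CPM per kb, and EPAS1 (1.46 ± 0.497), EGLN3 (1.05 ± 0.677) and ARNT2 (0.796 ± 0.598) were lower still, with ranges that overlapped. These levels use the union of annotated exons, which can be longer than the transcripts in these cells. ADM, a vasodilator peptide, was close to undetected, with 0 to 3 counts per library and 22 in all. A floor of 3 counts corresponds to 0.193 to 0.240 CPM here, so no difference in ADM was measurable, and a floor of this kind covers counting error only.

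With IL-4, EPAS1 and HIF1A rose in NIC1 cells, EGLN3 and HIF1A rose in DNMAML cells, and all 3 rose in IRES cells (edgeR's quasi-likelihood test, adjusted p under 0.05 over all genes). That is 2, 2 and 3 of the 9 tested members, all higher. Among all genes tested, 2.25%, 2.15% and 2.02% were called higher in these 3 responses, and 3.05%, 3.28% and 2.93% in either direction. No tested member was called lower, against 0.798%, 1.12% and 0.911% of all genes. The median log2 change over the 9 members was 0.02 in NIC1 cells, -0.01 in DNMAML cells and 0.03 in IRES cells, beside -0.01, -0.01 and -0.0049 over all genes. In a fit paired by construct and experiment number, which compares only the IL-4 and unstimulated libraries of one pair, 4, 6 and 5 of the 9 members were called in NIC1, DNMAML and IRES cells, where 14.3%, 17% and 15% of all genes were. With the experiment number alone as a block, 2, 4 and 3 were called, where 8.8%, 9.95% and 9.04% of all genes were.

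EPAS1 (ENSG00000116016, GRCh38 chr2:46293667-46386703, plus strand) encodes the HIF-2 alpha subunit. In experiments 1, 2 and 3 it measured 15.0, 11.5 and 16.7 CPM in NIC1 cells with IL-4, against 5.10, 5.41 and 6.56 CPM in unstimulated NIC1 cells. It measured 13.1, 10.7 and 13.2 CPM in DNMAML cells with IL-4, against 9.66, 6.95 and 12.1 CPM in unstimulated DNMAML cells. It measured 16.0, 12.3 and 13.4 CPM in IRES cells with IL-4, against 8.78, 7.14 and 7.72 CPM in unstimulated IRES cells. Every IL-4 library was above every unstimulated one in NIC1 and in IRES cells, while in DNMAML cells the groups overlapped, unstimulated experiment 3 being high. The log2 change was 1.34 ± 0.20 in NIC1 cells (SE, adjusted p = 0.000605), or 2.53-fold. In IRES cells it was 0.82 ± 0.19 (adjusted p = 0.0260). In DNMAML cells it was 0.37 ± 0.19, with an adjusted p of 0.551. In the paired fit the DNMAML change of 0.37 ± 0.11 passed (edgeR adjusted p = 0.0167), but not without experiment 1 or experiment 2 (0.141 and 0.160).

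The NIC1 call for EPAS1 was kept when any of the 6 libraries of the comparison was left out. The IRES call was lost, with adjusted p up to 0.136, without IL-4 replicate 1 or 3 or without unstimulated replicate 2 or 3. It was also lost (adjusted p = 0.139) without both libraries in which the most genes had a count, while the NIC1 call of EPAS1 was kept. The same held in a fit of only the groups compared. Within experiments the IL-4 change of EPAS1 in log2 CPM was 1.53, 1.06 and 1.33 in NIC1 cells, 0.44, 0.61 and 0.12 in DNMAML cells, and 0.85, 0.77 and 0.79 in IRES cells. NIC1 was thus the highest of the 3 constructs in each experiment and DNMAML the lowest. The summed CPM of the endothelial marker list, which includes PECAM1, was 716 to 722 in NIC1 cells with IL-4, against 628 to 721 in unstimulated NIC1 cells, and its part in the EPAS1 values was not tested.

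**Figure D1:**
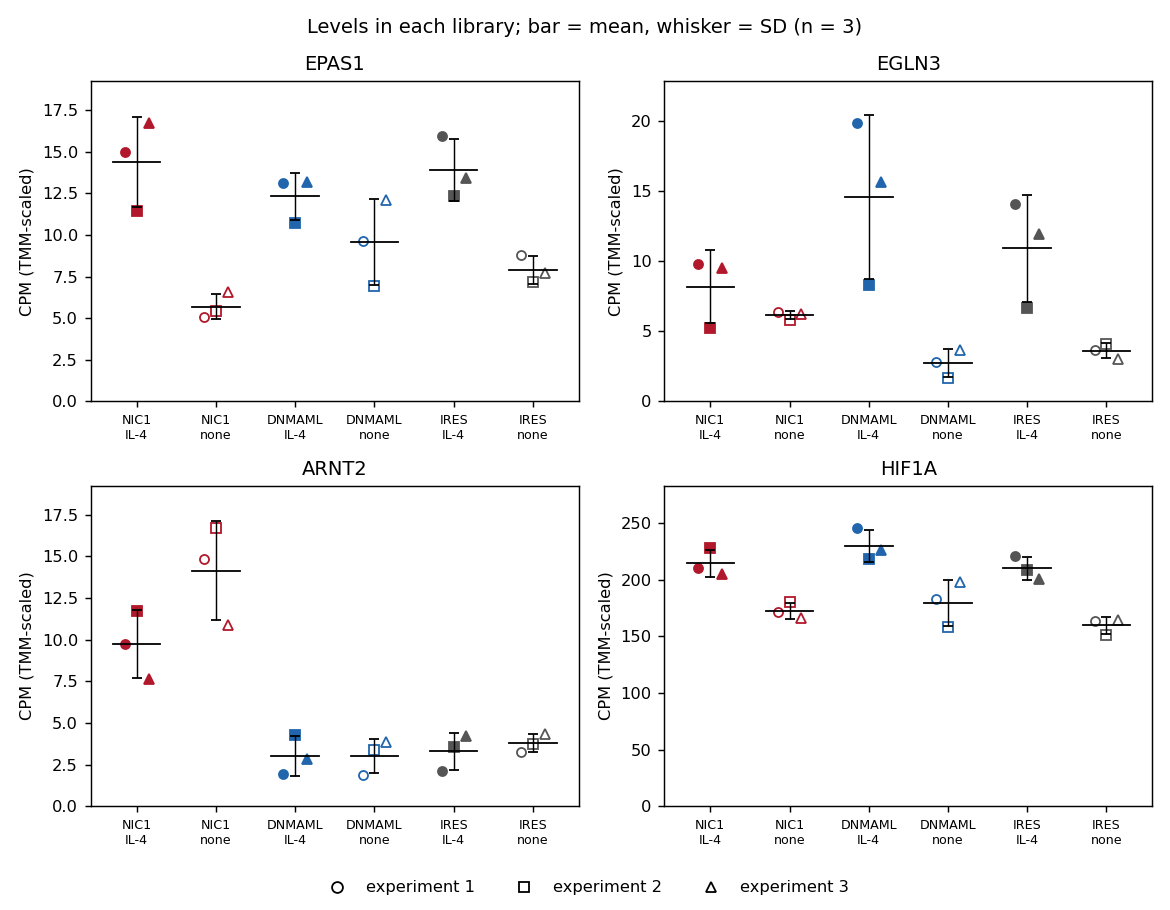
Levels of EPAS1, EGLN3, ARNT2 and HIF1A (vertical axes, CPM scaled by TMM factors) in each library of the 6 groups, with IL-4 to the left of no IL-4 for each construct. Marker shapes give the experiment, bars the mean and whiskers the SD of 3 libraries; EPAS1 is lowest in unstimulated NIC1 cells at 5.69 ± 0.77 CPM, EGLN3 is highest in DNMAML cells with IL-4 at 14.6 ± 5.9 CPM, and ARNT2 is higher in NIC1 cells than in the other constructs.

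EGLN3 (ENSG00000129521, chr14:33924231-34462774, minus strand) encodes the prolyl hydroxylase PHD3, whose gene is itself a target of HIF. It measured 9.83, 5.21 and 9.53 CPM in NIC1 cells with IL-4, against 6.39, 5.81 and 6.24 CPM in unstimulated NIC1 cells. It measured 19.9, 8.30 and 15.7 CPM in DNMAML cells with IL-4, against 2.80, 1.68 and 3.69 CPM in unstimulated DNMAML cells. It measured 14.1, 6.69 and 11.96 CPM in IRES cells with IL-4, against 3.63, 4.11 and 3.04 CPM in unstimulated IRES cells. The groups were separate in DNMAML and IRES cells and overlapped in NIC1 cells, where experiment 2 was lower with IL-4 than without. Experiment 2 also gave the lowest EGLN3 level of each IL-4 group.

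The log2 change of EGLN3 in NIC1 cells was 0.41 ± 0.34 and did not pass (SE, edgeR adjusted p = 0.926), with a 95% interval of -0.26 to 1.09. It was 2.42 ± 0.36 in DNMAML cells (adjusted p = 0.000726), or 5.37-fold, and 1.60 ± 0.36 in IRES cells (adjusted p = 0.0183). The DNMAML call was kept in each of the 6 leave-outs. The IRES call was lost, with adjusted p up to 0.105, without IL-4 replicate 1 or 3 or unstimulated replicate 1 or 3, and also with no filter on low counts (adjusted p = 0.0789) and without both libraries in which the most genes had a count (0.137). It was lost as well in a fit of only the groups compared, where the DNMAML call was kept. Within experiments 1, 2 and 3 the change in log2 CPM was 0.61, -0.15 and 0.60 in NIC1 cells, 2.77, 2.21 and 2.04 in DNMAML cells, and 1.92, 0.68 and 1.93 in IRES cells. Without experiment 2 the paired fit gave 0.61 ± 0.16 in NIC1 cells, which passed (adjusted p = 0.00840), while with all experiments it did not (0.269).

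HIF1A (ENSG00000100644, chr14:61695513-61748259, plus strand) encodes the HIF-1 alpha subunit. It measured 211, 228 and 205 CPM in NIC1 cells with IL-4, against 172, 180 and 166 CPM in unstimulated NIC1 cells. It measured 246, 218 and 226 CPM in DNMAML cells with IL-4, against 183, 158 and 198 CPM in unstimulated DNMAML cells. It measured 221, 209 and 201 CPM in IRES cells with IL-4, against 163, 151 and 165 CPM in unstimulated IRES cells. Every IL-4 library was above every unstimulated library of its construct. The log2 changes were small and alike in size: 0.31 ± 0.08 in NIC1 cells (SE, edgeR adjusted p = 0.0433), 0.36 ± 0.08 in DNMAML cells (adjusted p = 0.0183) and 0.40 ± 0.08 in IRES cells (adjusted p = 0.00898). Each passed more clearly in the paired fit, with adjusted p of 1.62e-05, 1.39e-06 and 3.55e-07.

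Without pairing, the HIF1A calls depended on single libraries. The NIC1 call was lost without any 1 of its 6 libraries (adjusted p up to 0.214). The DNMAML call was lost without IL-4 replicate 1 or 3 or unstimulated replicate 1 or 2 (up to 0.103), and the IRES call without IL-4 replicate 1 or unstimulated replicate 2 (up to 0.0554). Without both libraries in which the most genes had a count, HIF1A had an adjusted p of 0.0785 in NIC1 cells and 0.0714 in DNMAML cells, and the IRES call was kept. In a fit of only the groups compared, the HIF1A call was lost in each construct, with an edgeR adjusted p of 0.217 in DNMAML cells and 0.0740 in IRES cells. The NIC1 call was also lost with DESeq2 size factors. Of the HIF1A exon bases, 5.14% are shared with other genes, among them the antisense HIF1A-AS1, and the strand setting of the counting is not given in the sources used here.

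**Figure D2:**
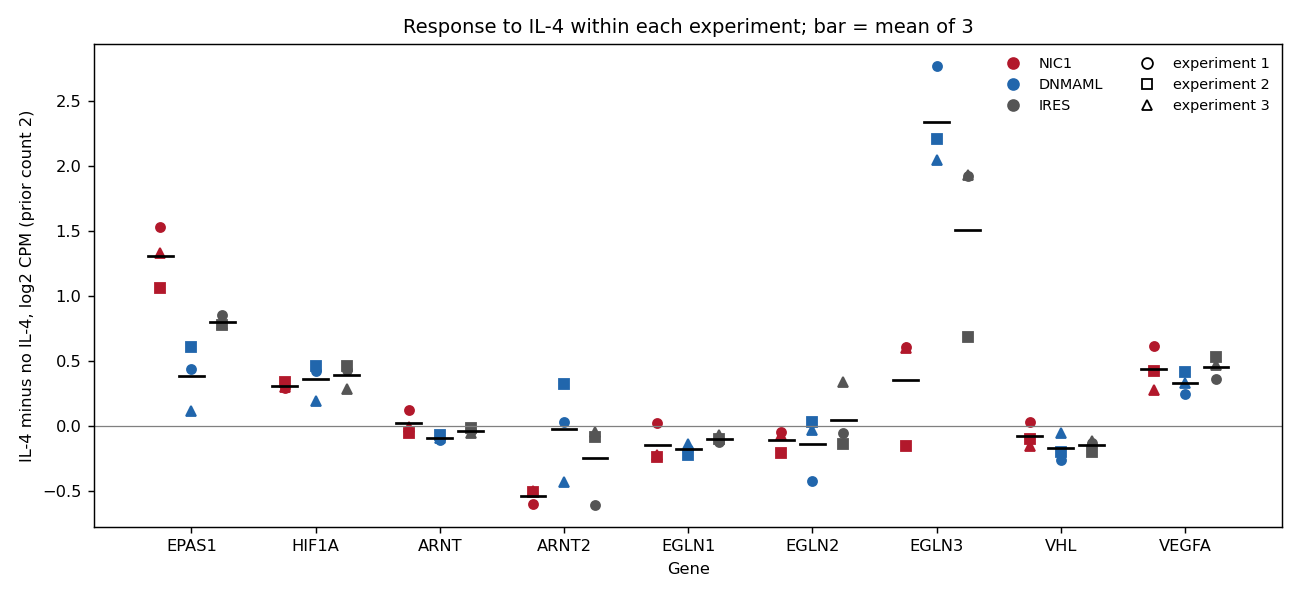
IL-4 response of the 9 tested members within each experiment (vertical axis, log2 CPM with IL-4 minus log2 CPM without it, prior count 2) for NIC1, DNMAML and IRES cells. Points are experiments and bars their mean; EPAS1 in NIC1 cells lies between 1.06 and 1.53, EGLN3 in DNMAML cells between 2.04 and 2.77, and HIF1A and VEGFA are above 0 in all 9 pairs.

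VEGFA (ENSG00000112715, chr6:43770184-43786487, plus strand), the growth factor for blood vessels that HIF induces, varied more between experiments than with IL-4. It measured 394, 944 and 571 CPM in NIC1 cells with IL-4, against 256, 703 and 470 CPM in unstimulated NIC1 cells. It measured 459, 767 and 457 CPM in DNMAML cells with IL-4, against 386, 575 and 363 CPM in unstimulated DNMAML cells. It measured 345, 762 and 516 CPM in IRES cells with IL-4, against 269, 527 and 373 CPM in unstimulated IRES cells. Experiment 2 was the highest of each group, the groups with and without IL-4 overlapped in each construct, and each IL-4 library was above its own unstimulated partner. The log2 change was 0.42 ± 0.42 in NIC1 cells, 0.35 ± 0.42 in DNMAML cells and 0.47 ± 0.42 in IRES cells without pairing (SE, edgeR adjusted p = 0.976, 0.968 and 0.927). In the paired fit it was 0.44 ± 0.05, 0.33 ± 0.05 and 0.46 ± 0.05, with adjusted p of 2.24e-07, 1.75e-05 and 1.30e-07. With the experiment number alone as a block it did not pass (adjusted p = 0.134, 0.267 and 0.104).

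The enzymes and the ligase that mark the alpha subunits for destruction, apart from EGLN3, moved little with IL-4. EGLN1 (ENSG00000135766, chr1:231363751-231425044, minus strand), the main HIF prolyl hydroxylase PHD2, measured 112, 85.9 and 112 CPM in DNMAML cells with IL-4, against 126, 99.9 and 123 CPM in unstimulated DNMAML cells. It was lower with IL-4 in all 3 pairs, but the groups overlapped. Its log2 change of -0.17 ± 0.16 did not pass without a block (edgeR adjusted p = 0.915) and did with the experiment number as a block (0.0446). VHL (ENSG00000134086, chr3:10141008-10152220, plus strand), which recognises the hydroxylated alpha subunits, measured 107, 104 and 118 CPM in DNMAML cells with IL-4, against 128, 119 and 122 CPM in unstimulated DNMAML cells. Those groups were separate by a narrow margin, and the log2 change of -0.17 ± 0.08 behaved likewise, with adjusted p = 0.470 without a block and 0.0493 with it. Both also passed in the paired fit (0.0123 for EGLN1 and 0.0149 for VHL), but not without experiment 1 (0.0667 and 0.250) or experiment 2 (0.0828 and 0.0953). In IRES cells VHL changed by -0.14 ± 0.08 (adjusted p = 0.649), and passed only in the paired fit of all libraries (0.0442). That call was lost without experiment 1, 2 or 3 (0.145, 0.237 and 0.0710) and without the pairs that hold the libraries with the most genes detected (0.0597). In NIC1 cells neither EGLN1 nor VHL passed in a fit of all libraries, and without experiment 1 the paired fit called EGLN1 (-0.23 ± 0.06, adjusted p = 0.0164).

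EGLN2 (ENSG00000269858, chr19:40798996-40808433, plus strand), the prolyl hydroxylase PHD1, ranged from 15.0 to 27.2 CPM over the 18 libraries and passed in no comparison under any of the fits. As 30.6% of its exon bases are shared with the read-through gene RAB4B-EGLN2, reads there may have been left out or counted elsewhere. ARNT (ENSG00000143437, chr1:150809705-150876768, minus strand), the common partner of the alpha subunits, ranged from 88.3 to 112 CPM, and no IL-4 response of it passed.

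**Figure D3:**
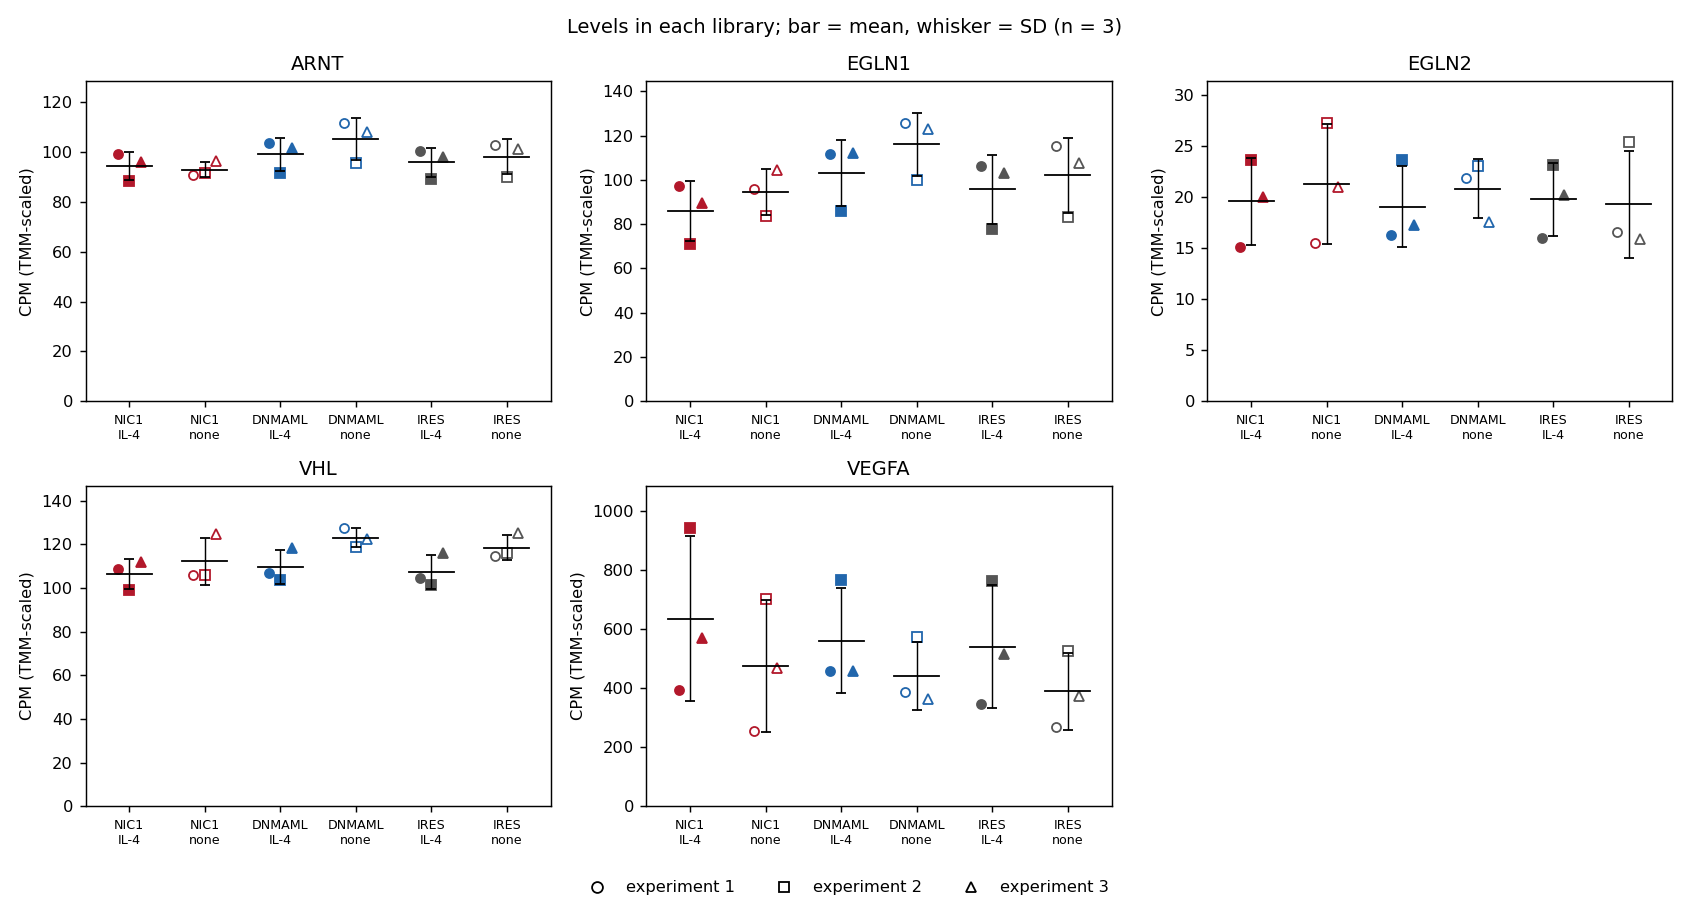
Levels of ARNT, EGLN1, EGLN2, VHL and VEGFA (vertical axes, CPM scaled by TMM factors) in each library of the 6 groups, with IL-4 to the left of no IL-4 for each construct. Bars are means and whiskers SDs of 3 libraries; VEGFA is highest in experiment 2 of each group, reaching 944 CPM in NIC1 cells with IL-4.

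The comparison of the IL-4 response between constructs asks whether the change with IL-4 in one construct is larger than in another. Between NIC1 and DNMAML cells the largest differences among the members were those of EGLN3 and EPAS1, and they ran in opposite directions. The IL-4 response of EPAS1 was larger in NIC1 cells than in DNMAML cells by 0.97 ± 0.27 on the log2 scale (SE), and that of EGLN3 was smaller, with a difference of -2.01 ± 0.50. Without a block, edgeR called none of the 15037 genes for this difference (0% of all genes), with 214 at an unadjusted p under 0.05, among them 2 members, and DESeq2 called none, with 154. The adjusted p-values of EPAS1 and EGLN3 were 0.9999 each. With the experiment number as a block they were 0.291 and 0.0593, and edgeR again called no gene.

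In the paired fit 13 genes were called, or 0.0865% of those tested, and EPAS1 and EGLN3 were 2 of them: EPAS1 with a difference of 0.97 ± 0.16 (adjusted p = 0.00948) and EGLN3 with -2.02 ± 0.32 (adjusted p = 0.0356). Within experiments 1, 2 and 3, NIC1 minus DNMAML was 1.09, 0.45 and 1.22 for EPAS1 and -2.16, -2.36 and -1.45 for EGLN3, so the sign was the same each time. Without experiment 1 the adjusted p was 0.335 for EPAS1 and 0.293 for EGLN3, and without experiment 3 it was 0.599 and 0.367. Without experiment 2, which had the smallest EPAS1 difference, it was 0.00195 and 0.000166. Without the pairs that hold the 2 libraries with the most genes detected it was 0.141 and 0.119. In each of these fits EPAS1 stayed between 0.81 and 1.17 and EGLN3 between -2.35 and -1.85 on the log2 scale.

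Against the empty vector, the IL-4 response of EPAS1 differed by 0.52 ± 0.28 in NIC1 cells and by -0.45 ± 0.27 in DNMAML cells, and that of EGLN3 by -1.19 ± 0.49 in NIC1 cells and 0.82 ± 0.50 in DNMAML cells. None of these passed, each with an adjusted p of 1 in edgeR without a block and from 0.654 to 1 in the paired fit. Without experiment 2 the paired difference of EGLN3 between NIC1 and IRES cells, -1.35 ± 0.25, did pass (adjusted p = 0.00856). Both differences share the IRES libraries. For NIC1 minus IRES and DNMAML minus IRES, edgeR called 0 genes (0%) without a block (121 and 98 at an unadjusted p under 0.05), and DESeq2 also called 0 (73 and 52). The differences of HIF1A lay between -0.08 and -0.04 on the log2 scale for the 3 pairs of constructs.

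**Figure D4:**
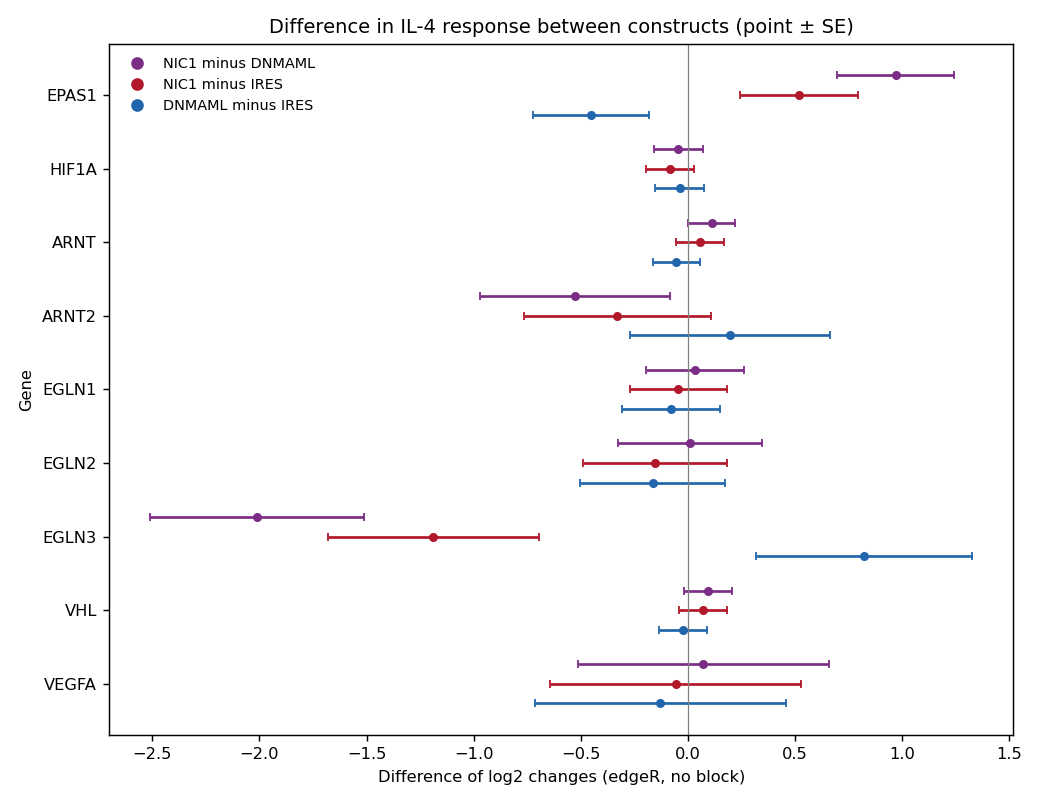
Difference in IL-4 response between constructs for the 9 tested members (horizontal axis, difference of log2 changes from edgeR with no block; points ± SE), with NIC1 minus DNMAML, NIC1 minus IRES and DNMAML minus IRES on separate lines for each gene. EPAS1 (0.97) and EGLN3 (-2.01) have the largest NIC1 minus DNMAML differences, on opposite sides of 0, and neither passed over all genes without pairing.

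ARNT2 (ENSG00000172379, chr15:80404350-80597937, plus strand), the second ARNT protein and best known from the nervous system, was the member that followed the construct. With IL-4 it measured 9.77, 11.7 and 7.67 CPM in NIC1 cells, 1.91, 4.27 and 2.82 CPM in DNMAML cells, and 2.10, 3.53 and 4.23 CPM in IRES cells. Without IL-4 it measured 14.8, 16.7 and 10.9 CPM in NIC1 cells, 1.87, 3.37 and 3.84 CPM in DNMAML cells, and 3.27, 3.75 and 4.37 CPM in IRES cells. All 6 NIC1 libraries were above all 12 others, and DNMAML and IRES libraries overlapped. Without IL-4 the log2 difference was 2.23 ± 0.32 between NIC1 and DNMAML cells (SE, edgeR adjusted p = 0.00183) and 1.90 ± 0.31 between NIC1 and IRES cells (adjusted p = 0.0260). With IL-4 it was 1.70 ± 0.32 between NIC1 and DNMAML cells (adjusted p = 0.0113). Between NIC1 and IRES cells with IL-4 it was 1.57 ± 0.31, which did not pass without a block (adjusted p = 0.0583) and did with the experiment number as a block (0.000525). Of all genes, 0.2% were called there without the block and 5.44% with it.

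ARNT2 was the only member called higher, and no member was called lower, in the unblocked fits of NIC1 against IRES cells without IL-4 (0.186% of all genes were called higher and 0.0466% lower, 0.233% together) and of NIC1 against DNMAML cells without IL-4 (1.04% and 0.612%, 1.65% together) and with it (1.08% and 0.359%, 1.44% together). The call between NIC1 and DNMAML cells without IL-4 was kept in each of the 6 leave-outs. That between NIC1 and IRES cells without IL-4 was lost without unstimulated NIC1 replicate 1 or 2 or any unstimulated IRES replicate (adjusted p up to 0.147). That between NIC1 and DNMAML cells with IL-4 was lost without NIC1 replicate 2 or DNMAML replicate 1 or 3 (up to 0.0764). Without both libraries in which the most genes had a count, these last 2 ARNT2 calls were lost (adjusted p = 0.0997 and 0.0974) and the first was kept. The same held in a fit of only the groups compared. With IL-4, ARNT2 changed by -0.54 ± 0.29 on the log2 scale in NIC1 cells, which did not pass without a block (adjusted p = 0.634). It fell in the paired fit (-0.54 ± 0.11, adjusted p = 0.000787), being lower with IL-4 in all 3 pairs by 0.60, 0.50 and 0.50.

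Of a list of 5 T cell markers, 2 averaged at least 1 CPM over the 18 libraries. The list summed to 121 to 155 CPM in unstimulated NIC1 cells, against 85.1 to 95.7 CPM in unstimulated DNMAML cells and 87.1 to 104 CPM in unstimulated IRES cells. Without IL-4, CD3D lay at 24.0 to 41.6 CPM in NIC1 cells, 0.978 to 4.69 CPM in DNMAML cells and 2.54 to 8.80 CPM in IRES cells. TRAC lay at 97.0 to 113 CPM in unstimulated NIC1 cells, 84.0 to 91.7 CPM in unstimulated DNMAML cells and 84.4 to 95.2 CPM in unstimulated IRES cells. CD3E had 11 counts, CD2 6 and CD8A 25 over all 18 libraries. The monocyte and macrophage list summed to 752 to 967 CPM in unstimulated NIC1 cells, against 970 to 1131 CPM in unstimulated DNMAML cells and 898 to 1079 CPM in unstimulated IRES cells. The epithelial list, of which 3 of 5 markers averaged at least 1 CPM, summed to 10.4 to 10.8 CPM in unstimulated NIC1 cells, against 16.5 to 19.8 CPM in unstimulated DNMAML cells and 10.7 to 16.2 CPM in unstimulated IRES cells. With IL-4 it summed to 9.43 to 12.9 CPM in NIC1 cells, 16.6 to 21.1 CPM in DNMAML cells and 13.4 to 14.7 CPM in IRES cells. The part of these lists in the ARNT2 values was not tested. Antisense genes share 2.76% of the ARNT2 exon bases.

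Within one condition, EPAS1 (without IL-4) and EGLN3 (in both conditions) differed between NIC1 and DNMAML cells when the experiment was taken into account. Without IL-4, EPAS1 averaged 5.69 ± 0.77 CPM in NIC1 cells and 9.58 ± 2.58 CPM in DNMAML cells (SD, n = 3 each), with no overlap and a log2 difference of -0.75 ± 0.20. Its edgeR adjusted p was 0.0757 without a block and 0.00134 with the experiment as a block, and DESeq2 gave 0.0248. With IL-4, EPAS1 averaged 14.4 ± 2.69 CPM in NIC1 cells and 12.3 ± 1.41 CPM in DNMAML cells, with overlap and a log2 difference of 0.22 ± 0.19 that did not pass (adjusted p = 0.740, blocked 0.291). EGLN3 averaged 6.15 ± 0.30 CPM in unstimulated NIC1 cells and 2.72 ± 1.00 CPM in unstimulated DNMAML cells, a log2 difference of 1.17 ± 0.37 (adjusted p = 0.147, blocked 0.00416). With IL-4 the order of EGLN3 was the other way round, at 8.19 ± 2.58 CPM in NIC1 cells and 14.6 ± 5.9 CPM in DNMAML cells, and the log2 difference was -0.84 ± 0.33 (adjusted p = 0.308, blocked 0.00762).

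EGLN1 was lower in NIC1 than in DNMAML cells by the same measure, with a log2 difference of -0.30 ± 0.16 without IL-4 (edgeR adjusted p = 0.465, blocked 0.000866) and -0.26 ± 0.16 with it (adjusted p = 0.593, blocked 0.00240). ARNT differed by -0.18 ± 0.08 without IL-4 (adjusted p = 0.321, blocked 0.0223). In the blocked fits 5 of the 9 tested members were thus called between NIC1 and DNMAML cells without IL-4 and 3 with it, where 13.8% and 12.6% of all genes were called. Unstimulated NIC1 and IRES cells also did not overlap in EPAS1 or in EGLN3, but neither gene passed, with log2 differences of -0.47 ± 0.20 and 0.77 ± 0.36 (adjusted p = 0.644 and 0.701, blocked 0.0696 and 0.0887). These cells did not overlap in ARNT2 either, nor in HIF1A, whose log2 difference was only 0.11 ± 0.08 (edgeR adjusted p = 0.862 without a block). How many of all genes separate in this way was not counted. HIF1A, EGLN2, VHL and VEGFA passed in no comparison between constructs, with or without the block.

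Between DNMAML and IRES cells no member was called, and without a block edgeR called no gene at all (0%) without IL-4 or with it, with 371 and 357 at an unadjusted p under 0.05, none of them a member. DESeq2 called 2 genes without IL-4 and 1 with it, and the blocked fit called 22 and 14 (0.146% and 0.0931%), none of them a member.

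**Figure D5:**
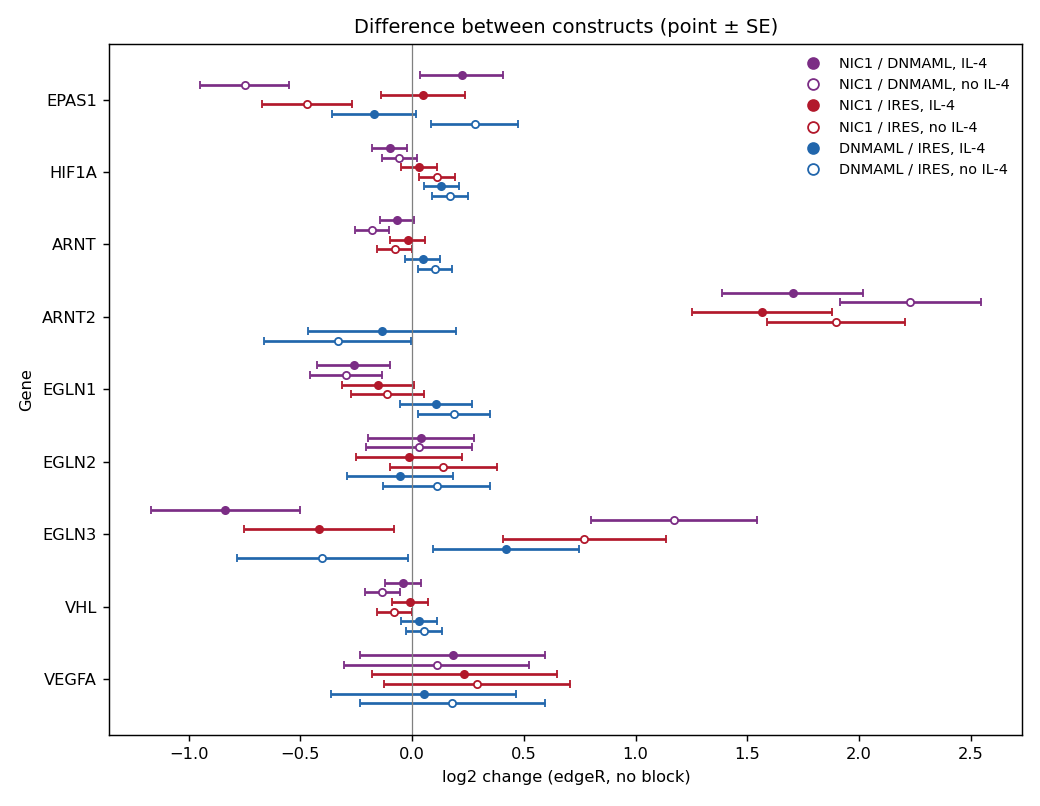
Log2 differences between constructs for the 9 tested members (horizontal axis, edgeR with no block; points ± SE), with filled points for cells with IL-4 and open points for cells without it. ARNT2 lies between 1.57 and 2.23 in the 4 comparisons that involve NIC1, and EGLN3 changes sign between NIC1 and DNMAML cells, at -0.84 with IL-4 and 1.17 without.

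Other genes of the pathway were counted over 5 lists that leave out the members. Of 17 regulators of HIF, 16 were tested, and the only one called in an IL-4 response without a block was CITED2 (1 of 16 in each response, beside 3.05%, 3.28% and 2.93% of all genes), which competes with the alpha subunits for the coactivators EP300 and CREBBP. CITED2 averaged 1191 ± 59 CPM in NIC1 cells with IL-4 and 436 ± 54 CPM in unstimulated NIC1 cells (SD, n = 3 each), a log2 change of 1.45 ± 0.14 (SE, edgeR adjusted p = 9.89e-06). It rose by a like amount in DNMAML cells (1.39 ± 0.14, adjusted p = 1.67e-05) and IRES cells (1.47 ± 0.14, adjusted p = 8.33e-06). With the experiment number as a block, 1, 2 and 1 of the 16 were called higher in NIC1, DNMAML and IRES cells and 2, 0 and 0 lower. Of all genes, 8.8%, 9.95% and 9.04% were called in these blocked fits. Beside CITED2, the genes called were the ubiquitin ligases SIAH1 and SIAH2, which act on the EGLN proteins, and the chaperone HSP90AA1. SIAH1 and SIAH2 were lower in NIC1 cells (blocked adjusted p = 0.0268 and 0.0146), and HSP90AA1 was higher in DNMAML cells (blocked 0.0321). Their log2 changes in the fit without a block were -0.30, -0.32 and 0.20. Of 14 relatives that share the bHLH-PAS fold or bind to it, 9 were tested. Without a block 2 were called higher and 0 lower in each response, beside 3.05%, 3.28% and 2.93% of all genes. They were BMAL2, a partner of CLOCK, and the coactivator NCOA3. Their log2 changes in NIC1, DNMAML and IRES cells were 1.05, 0.98 and 0.99 for BMAL2 (adjusted p of 1.71e-06, 3.24e-06 and 3.40e-06) and 0.99, 0.89 and 0.91 for NCOA3 (1.29e-05, 4.33e-05 and 3.56e-05). The blocked fit called 3, 3 and 3 of the 9 higher and 0, 2 and 1 lower, where 8.8%, 9.95% and 9.04% of all genes were called. BMAL1 was also higher there in each response (blocked adjusted p = 8.25e-07, 0.000189 and 7.15e-06). NCOA2 was lower in DNMAML and IRES cells and CLOCK in DNMAML cells. BMAL1, NCOA2 and CLOCK did not pass without the block.

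Genes known to be induced by hypoxia were called in both directions with IL-4 in the blocked fit. Of 43 such genes 38 were tested, and without a block 1 was called higher and 1 lower in each response. Of all genes, 2.25%, 2.15% and 2.02% were called higher there and 0.798%, 1.12% and 0.911% lower. The gene called higher was LOX, which cross-links collagen, at 2.52, 2.26 and 2.77 CPM on average in NIC1, DNMAML and IRES cells with IL-4, against 0.547, 0.334 and 0.220 CPM in the same cells without it. LOX reached the filter's cut-off of 0.732 CPM in 9 of 9 IL-4 libraries and 0 of 9 unstimulated ones, so it entered the test only through the groups where it is high and its p-values are not given. The higher count without a block is LOX alone, so it is no result about the list. LOX is also among the genes counted as higher in the blocked fit below. The gene that fell was PLIN2, a coat protein of lipid droplets, with log2 changes of -0.95 in NIC1 cells, -1.03 in DNMAML cells and -1.09 in IRES cells (edgeR adjusted p = 4.06e-05, 1.70e-05 and 9.40e-06). The median log2 change of the 38 genes was -0.01, -0.08 and -0.07 in the 3 responses, beside -0.01, -0.01 and -0.0049 over all genes. The blocked fit called 5, 3 and 4 higher and 7, 7 and 9 lower of the 38, where 8.8%, 9.95% and 9.04% of all genes were called.

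Between constructs, HMOX1, the haem-degrading enzyme, was the one gene of the hypoxia list called without a block, at 14.8 ± 1.5 CPM in NIC1 cells with IL-4 and 6.45 ± 0.39 CPM in DNMAML cells with IL-4 (log2 difference 1.20 ± 0.21, edgeR adjusted p = 0.00754). That is 1 of the 38 tested, where 1.08% of all genes were called higher and 1.44% in either direction, so the count is near the share over all genes. With the block, 3 were called higher and 1 lower in NIC1 against IRES cells without IL-4, and 7 and 0 with it, where 5.37% and 5.44% of all genes were called. Between NIC1 and DNMAML cells 5 were called higher and 2 lower without IL-4, and 4 and 5 with it, where 13.8% and 12.6% of all genes were.

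All 20 genes of glycolysis, the route that HIF1A is known to raise in low oxygen, were tested, and edgeR without a block called 0 of them in any comparison. Of all genes, 3.05%, 3.28% and 2.93% were called in the IL-4 responses and 0% to 1.65% between constructs, so 0 of 20 is near these shares. At an unadjusted p under 0.05 there were 2, 4 and 3 in the IL-4 responses of NIC1, DNMAML and IRES cells. Of all 15037 genes, 1513, 1633 and 1519 had such a p. DESeq2 called 0 of the 20 in each. The blocked fit called 1, 3 and 2 of the 20 higher and 0, 1 and 0 lower, beside the 8.8%, 9.95% and 9.04% of all genes.

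Of 15 ligands and receptors of the VEGF and adrenomedullin systems 10 were tested. Without a block the only one called was ACKR3, a scavenging receptor that takes up adrenomedullin, which was lower in DNMAML cells with IL-4 (0.326 CPM) than without (1.49 CPM). That is 1 of 10 in the DNMAML response, where 3.28% of all genes were called and 1.12% called lower, and 0 of 10 in the NIC1 and IRES responses. ACKR3 reached the filter's cut-off in 1 of 9 IL-4 libraries and 8 of 9 unstimulated ones, and is named here after its values were seen. The count without a block is ACKR3 alone, so it is no result about the list. In the blocked fit FLT1, a receptor for VEGFA that also stands in the hypoxia list, was called higher with IL-4 in each construct. It averaged 306 ± 112 CPM in NIC1 cells with IL-4 and 135 ± 61.7 CPM in unstimulated NIC1 cells (SD, n = 3 each), a log2 change of 1.18 ± 0.42 (edgeR adjusted p = 0.248, blocked 3.43e-06). In DNMAML cells its change was 0.98 ± 0.43 (adjusted p = 0.393, blocked 3.68e-05) and in IRES cells 0.89 ± 0.42 (0.517, blocked 8.72e-05). FLT1 was also higher in NIC1 cells than in IRES or DNMAML cells in all 4 blocked comparisons (blocked adjusted p = 3.06e-06 to 0.00153), with log2 differences of 0.78 to 1.33 in the fit without a block. NRP2, a co-receptor for VEGF, was called lower with IL-4 in each construct by the blocked fit, with log2 changes of -0.27, -0.43 and -0.41 in NIC1, DNMAML and IRES cells in the fit without a block (blocked adjusted p = 0.0233, 0.000354 and 0.000564). In all, the blocked fit called 1, 2 and 1 of the 10 higher and 2, 3 and 1 lower in the 3 IL-4 responses, where 8.8%, 9.95% and 9.04% of all genes were called. ACKR3 is among the genes counted as lower there in NIC1 and DNMAML cells, and it entered the test only through the groups where it is high. FLT1, RAMP1, NRP1 and NRP2 did not pass without the block and were chosen after their values were seen.

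Across the 18 libraries, the genes whose log2 CPM ran most nearly parallel to EPAS1 were ELF4, LINC00649 and SREBF1, with Pearson r of 0.941, 0.911 and 0.910. Those nearest to EGLN3 were SLX4, GGT5 and FGL2, with r of 0.894, 0.883 and 0.880. Those nearest to ARNT2 were ARHGEF3, TMSB4X and COL6A3, with r of 0.958, 0.949 and 0.943. These are the 3 highest of all tested genes for each member and share libraries, depth and experiments with it, so they describe likeness only.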

How the data were processed

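RNA was sequenced from 18 libraries of transduced THP-1 cells. The deposited files hold raw counts, whole reads for each gene with no normalization. Per the submitters' processing notes the authors used FastQC, Trimmomatic, HISAT2, HTSeq and DESeq2 with GRCh38.p12; versions, annotation release and strand setting were not given in these sources. Entries that name no gene held 23.8% to 30.9% of each library and were left out.

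Genes were kept by edgeR's filterByExpr, library sizes were scaled by TMM, and edgeR's quasi-likelihood F test was run on the means of the 6 groups in 1 model of the 18 libraries, with p-values adjusted by Benjamini and Hochberg's method over 15037 genes and a threshold of 0.05. Standard errors come from the F statistic, and prior counts of 2 entered log2 CPM. The 95% interval given for EGLN3 is the log2 change ± 1.96 SE, a normal quantile that makes it narrow for so few libraries. The tools were edgeR 4.0.16, DESeq2 1.42.0 and limma 3.58.1 in R 4.3.3, and matplotlib 3.10.9 in Python 3.11.15. The fits were also run on simulated data, for the IL-4 response of NIC1 cells only. Those data held no effect of experiment or pair, so they cannot speak to the differences in the paired fit. Libraries of a group differed by more than counting noise (chi-square over degrees of freedom of 5.45 to 48.5).

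The labels number the experiments but do not say that libraries are paired, so the pairing is read from the counts. Deviations from group means correlated in all 45 pairs of one number (Pearson r across genes of 0.206 to 0.759), and in the 9 pairs of one construct and number (0.376 to 0.759). In the 90 pairs of different numbers r was -0.654 to 0.354, so the ranges overlapped. As deviations within a group sum to 0, a positive r within a number itself pushes r between numbers below 0. The 9 pairs are part of the 45 and were not compared with the rest, so a tie by construct beyond the number was not tested. Blocked fits use the number, and paired fits use the construct with the number.

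The members and lists were chosen with earlier results of these data known. All 10 members are named; of each list, up to 4 called genes a direction with the largest change and at least 2 CPM in a group; and the 3 tested genes most like each of the 3 members with the widest range of group means. Coordinates and exon lengths are from GENCODE 29 (GRCh38), promoters from RefSeq. Alternatives were other scaling, no filter, DESeq2, both blocks, only the groups compared, fewer libraries and each replicate left out.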

Additional observations from a re-analysis of the deposited data

Results flagged for a closer look

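The difference in IL-4 response between NIC1 and DNMAML cells is singled out for 2 members because the difference itself passed in the fit paired by construct and experiment number. It was 0.967 on the log2 scale for EPAS1, the response being larger in NIC1 cells, and -2.02 for EGLN3, the response being smaller in NIC1 cells. Neither passed without pairing, and their adjusted p-values without each experiment are given with the results.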

How the results depend on the processing

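Of the 810 values of single members computed under other settings, 769 kept their direction and their side of the threshold, 15 no longer passed, 26 newly passed and 0 reversed. Of 810 values with 1 library left out, 780 stayed, 28 no longer passed, 1 newly passed and 1 reversed. The reversed one was the uncalled IL-4 response of VHL in NIC1 cells without unstimulated replicate 3, where leave-outs gave -0.11 to 0.0076. Among values counted as kept, 120 uncalled ones changed sign by less than 1 SE.

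The number of members called moved as follows. With the experiment number as a block it was 4 for the IL-4 response of DNMAML cells (2 without the block), 1 for NIC1 against IRES cells with IL-4 (0 without), and 5 and 3 for NIC1 against DNMAML cells without and with IL-4 (1 without the block in each). With pairing by construct and number it was 4, 6 and 5 for the IL-4 responses of NIC1, DNMAML and IRES cells, and 2 for the difference between NIC1 and DNMAML cells. The block changed no other count of members. With no filter on low counts it was 2 for the IRES response (3 with the filter). With no filter, and likewise with DESeq2, it was 1 for NIC1 against IRES cells with IL-4 and 2 for NIC1 against DNMAML cells without it, and with DESeq2 size factors it was 1 for the NIC1 response. When the 2 libraries with most genes detected were left out it was 1 for each of the 3 IL-4 responses, and 0 for NIC1 against IRES cells without IL-4 and for NIC1 against DNMAML cells with it. With only the groups compared it was 1, 1 and 0 for the NIC1, DNMAML and IRES responses and again 0 for those 2 comparisons. With 1 library left out it was 1 for the NIC1 response, 1 to 2 for DNMAML, 0 to 3 for IRES, 0 to 1 for NIC1 against IRES cells without IL-4, 1 to 2 for NIC1 against DNMAML cells without IL-4 and 0 to 1 with it. Fewer libraries also leave less to estimate the spread; the other causes were not tested.

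Depth limits ADM and, less so, EGLN3 and ARNT2, which had as few as 23 and 28 counts in a library. The fits without an experiment were added after seeing the data.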
